A study of Mus musculus with 10 samples.

Results

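The genes described here encode 4 insulin-like growth factor (IGF) binding proteins and the growth hormone axis of the liver. They were taken by symbol from the deposited table and number 10 of its 51911 genes: Igfbp1, Igfbp2, Igfbp3, Igfbp4, Igf1, Igfals, Ghr, Socs2, Cish and Lepr. Liver RNA came from C57BL/6 mice that were all fed a high-fat diet for 8 weeks, and the groups are 5 wild type samples and 5 samples with the genotype Cpt1a L-/-, a liver knockout. Cpt1a encodes the mitochondrial enzyme that admits long-chain fatty acids to oxidation, and the title of the series asks about its link to the hormone FGF21. The promoter that drove the deletion, the age and sex of the mice and whether each sample was 1 animal are not stated in what was used here.

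Growth hormone binds its receptor on hepatocytes, and the kinase JAK2 then activates the transcription factor STAT5, which drives Igf1 and Igfals. STAT5 also induces Cish and Socs2, whose proteins feed back on the receptor. Most IGF1 in blood comes from the liver and travels bound to binding proteins. Igfbp1 is known as a gene that insulin represses through forkhead factors, and in mice an excess of FGF21 has been tied to weak STAT5 signalling and a raised Igfbp1.

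In Igfbp1 to Igfbp5, a stretch of 24 bases in the first coding exon codes for a cysteine-rich motif of the IGF-binding domain. The stretch was found by a search that fixes the order of its glycine and cysteine residues. Likeness at those codons is therefore largely given by the search. The stretch is shown because Igfbp2 and Igfbp4, the most abundant of the binding protein transcripts, differed in their response to the knockout. Capitals mark cysteine codons, each sequence is written 5′ to 3′ on the coding strand, and the sequences come from the GENCODE M21 transcripts on GRCm38.
Igfbp1: ggcTGTggcTGCTGCccgacaTGT
Igfbp2: ggcTGCggcTGCTGCtccgtgTGC
Igfbp3: ggcTGCggcTGCTGCctgactTGC
Igfbp4: ggcTGCggtTGTTGCgccactTGC
Igfbp5: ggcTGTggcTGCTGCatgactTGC
The Igfbp2 stretch lies in exon 1 at chr1:72824778-72824801 on the plus strand, and the Igfbp4 stretch in exon 1 at chr11:99041650-99041673, also on the plus strand. The Igfbp1 stretch lies at chr11:7198130-7198153 on the plus strand, that of Igfbp3 at chr11:7213566-7213589 on the minus strand and that of Igfbp5 at chr1:72873966-72873989 on the minus strand, all in exon 1. Over the 24 bases, the codons fixed by the search included, Igfbp3 and Igfbp4 matched Igfbp2 at 18 bases and Igfbp1 and Igfbp5 at 17. The motif searched for was not in the transcripts of Igfbp6 and Igfbp7.

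Promoter windows are shown for the gene that rose, Igfbp2, and for Igfbp1 and Cish, the genes whose levels spread most between libraries of 1 genotype together with Socs2. RefSeq windows on GRCm38.p6, from 250 bases before to 50 after a start, were found for 9 of the 10 genes, 14 windows in all. Capitals mark matches on either strand to GGGCGG (GC box) in Igfbp2, CAAAACAA (a forkhead element) in Igfbp1 and TTCNNNGAA (the STAT5 motif) in Cish.
Igfbp2: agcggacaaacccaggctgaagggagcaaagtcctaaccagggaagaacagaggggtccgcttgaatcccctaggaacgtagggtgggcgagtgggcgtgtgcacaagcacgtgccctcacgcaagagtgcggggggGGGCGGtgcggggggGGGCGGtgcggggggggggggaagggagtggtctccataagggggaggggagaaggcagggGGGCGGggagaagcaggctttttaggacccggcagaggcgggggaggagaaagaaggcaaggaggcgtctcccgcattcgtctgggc
Igfbp1: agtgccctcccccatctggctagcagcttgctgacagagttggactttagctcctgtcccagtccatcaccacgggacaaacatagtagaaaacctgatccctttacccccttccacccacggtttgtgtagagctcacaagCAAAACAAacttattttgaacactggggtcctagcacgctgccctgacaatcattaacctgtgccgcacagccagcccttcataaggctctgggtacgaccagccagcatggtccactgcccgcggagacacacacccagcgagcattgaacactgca
Cish: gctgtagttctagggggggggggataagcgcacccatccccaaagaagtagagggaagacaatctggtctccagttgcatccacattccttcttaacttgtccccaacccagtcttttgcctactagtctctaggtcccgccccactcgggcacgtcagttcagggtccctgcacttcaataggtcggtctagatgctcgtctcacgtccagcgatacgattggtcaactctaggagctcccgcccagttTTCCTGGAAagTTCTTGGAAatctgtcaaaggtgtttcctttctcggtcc
The Igfbp2 window is chr1:72824230-72824529, that of Igfbp1 chr11:7197537-7197836 and that of Cish chr9:107296409-107296708, all on the plus strand. Igfbp2 held 3 GC boxes, a motif present in 35.7% of the 32851 windows of all genes and present 2 or more times in 19.5%. Igfbp1 held 1 CAAAACAA, 108 bases before the start, and 2.51% of all windows held at least 1. Cish held 2 STAT5 motifs, at 107296659 and 107296670, where 8.3% of all windows held at least 1 and 0.457% held 2 or more. Among the other genes, Igfals had 1 STAT5 motif in each of 2 windows and Lepr had 1 CAAAACAA. GC boxes were also in windows of Cish (2, not capitalised), Ghr (2), Lepr (1) and Igfals (1 and 2 in separate windows), none of which passed the test. A match says only that the letters are present, and the motifs do not overlap each other.

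Total counts ran from 20599078 to 26955922 per library. The targeted gene, Cpt1a, fell from 430 ± 85.8 to 80.0 ± 9.19 CPM (normalised read count scaled to library size, mean ± SD, n = 5 each), with ranges of 320 to 504 and 70.5 to 93.9, so each library matched its label. Hepatocyte markers such as Alb and Ttr summed to between 74374 and 101529 CPM. Ddx3y, a Y-linked gene, lay between 9.52 and 35 CPM in every library and Xist at most at 0.357 CPM. Once each genotype's mean was removed, the first principal component held 38.8% of the variance. Scores of 19.1 to 30.3 belonged to 5 libraries (replicates 3 to 5 of the wild type, 1 and 4 of the knockout). The other 5 had scores of -42.7 to -6.6. Removing the means forces scores of both signs into each genotype, so their occurrence in both says nothing about genotype.

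Igfbp2 rose in the knockout livers and was the only 1 of the 10 genes that passed the test. Its level was 2.41-fold higher, from 154 ± 37.2 to 371 ± 73.1 CPM (SD, n = 5 each). The protein is a secreted binder of IGF1 and IGF2 that circulates in blood. Of all 13619 genes tested 18 passed by edgeR, or 0.132%, with 0.0808% higher and 0.0514% lower in the knockout. By DESeq2, which also called Igfbp2, 0.683% of genes passed and 0.382% were higher. Genotypes did not overlap for 143 genes, or 1.05%, of which 0.521% were higher and 0.529% lower.

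Igfbp2 (ENSMUSG00000039323) lies on chromosome 1 at 72824503 to 72852474 and overlaps no annotated gene. In wild type livers it stood at 195, 156, 134, 102 and 183 CPM in replicates 1 to 5. In knockout livers it stood at 338, 371, 488, 290 and 365 CPM. Every knockout library lay above every wild type library, with knockout replicate 3 the highest and wild type replicate 4 the lowest. The fitted log2 fold change was 1.27 ± 0.19 (SE), with a 95% interval of 0.86 to 1.67 (edgeR adjusted p = 0.018). Exact permutation of the genotype labels, two-sided, gave p = 0.0079, the smallest that 5 against 5 allows. The authors' deposited table gives a log2 fold change of 0.95 and a p of 1.2e-10. That fold change is smaller in size than the fitted one, as it is for Cpt1a (-1.99 deposited, -2.43 fitted). The reason was not tested.

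The direction held without each library in turn, with log2 fold changes from 1.15 to 1.36. Adjusted p passed 0.05 in 5 of those 10 fits, at 0.0574 and 0.0755 when wild type replicates 2 and 3 were dropped in turn, and at 0.0595, 0.054 and 0.0511 for knockout replicates 2, 3 and 5. With a surrogate variable as covariate, which sorted the libraries by sign as the first principal component did, it was 1.26 (edgeR adjusted p = 0.0079). Cholangiocyte markers summed to 51.6 to 138 CPM in wild type and 32.3 to 62.7 CPM in knockout libraries, with none of the 8 markers at 0 throughout. Stellate and fibroblast markers, 10 in number, summed to 225 to 358 and 195 to 288 CPM. Endothelial markers summed to 293 to 421 CPM in wild type and 293 to 419 CPM in knockout libraries. Kupffer cell and macrophage markers summed to 512 to 688 and 527 to 687 CPM, and lymphocyte markers to 4.96 to 7.46 and 4.15 to 6.24 CPM. All of these sums, and that of the hepatocyte markers, were lower in the knockout on average while Igfbp2 was higher. Their part in the result was not tested. In whole liver, fewer cells of a type and less RNA per cell cannot be told apart.

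**Figure D1:**
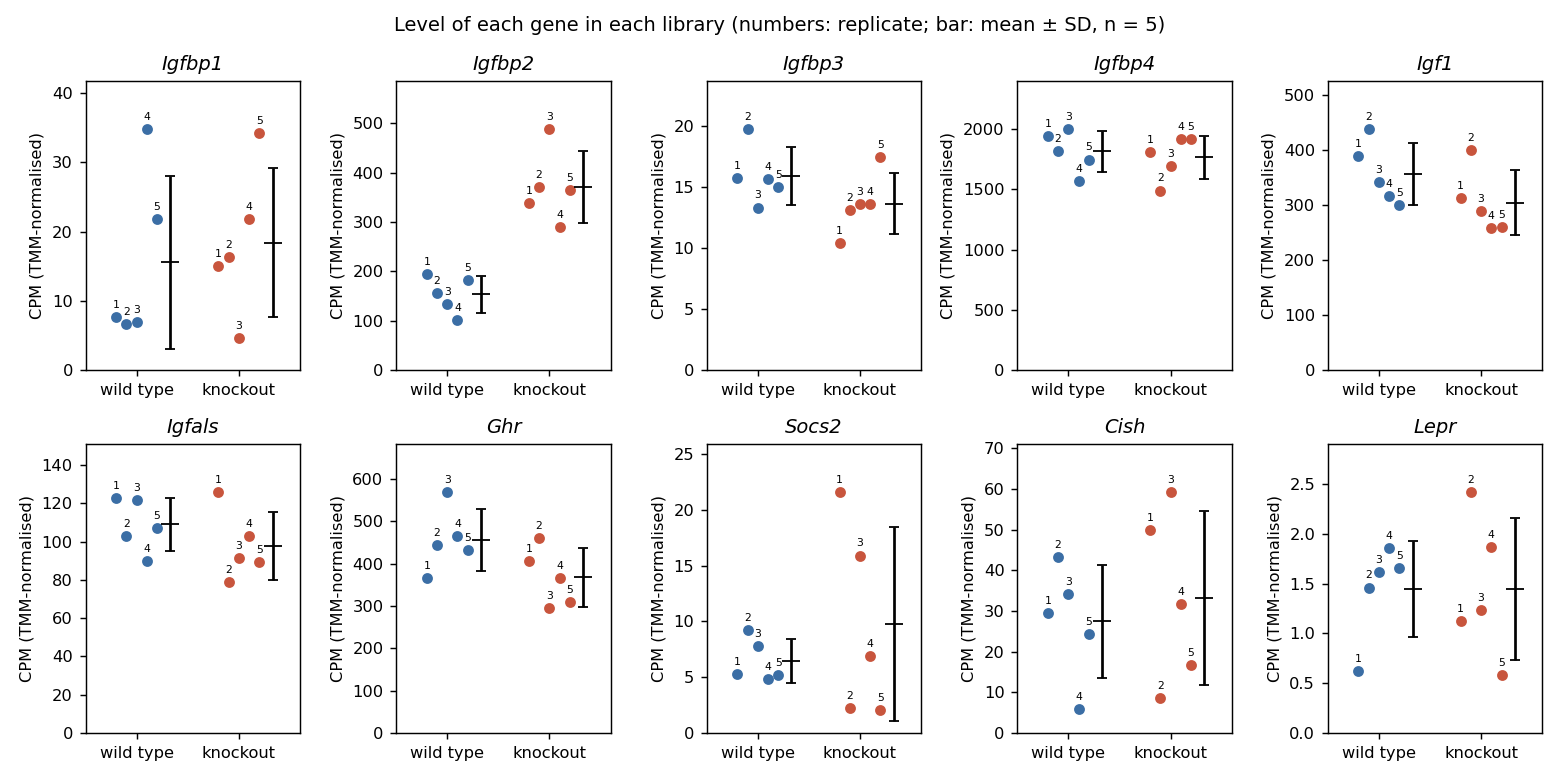
CPM (vertical axis, from 0) of each of the 10 genes in the 5 wild type (blue) and 5 knockout (red) libraries, numbered by replicate, with the mean and SD beside them. Only in the Igfbp2 panel do the genotypes lie apart, at 102 to 195 against 290 to 488 CPM.

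Igfbp4, the most abundant binding protein transcript, was at a similar mean in both genotypes. It encodes a binder that restrains IGF action and is cleaved by the protease PAPP-A. Igfbp4 (chromosome 11 at 99041244 to 99054392) stood at 1940, 1815, 1998, 1569 and 1747 CPM in wild type replicates 1 to 5. Knockout replicates stood at 1811, 1490, 1697, 1915 and 1915 CPM. The groups overlapped almost fully, and the log2 fold change was -0.04 ± 0.12 (95% interval -0.31 to 0.23, edgeR adjusted p = 1.0). Its sign turned positive (0.07) when libraries were scaled by their totals alone, so no direction is given.

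Igfbp1 showed a wide spread within each genotype and no call. Its protein is a short-lived circulating binder made by hepatocytes, and the gene (chromosome 11 at 7197782 to 7202546) neighbours Igfbp3 on the same chromosome. Wild type replicates 1, 2 and 3 stood at 7.64, 6.69 and 6.99 CPM, and replicates 4 and 5 at 34.8 and 21.9 CPM. Knockout replicates 1 to 5 stood at 15, 16.4, 4.69, 21.8 and 34.3 CPM. The highest library was 5.2 times the lowest in wild type and 7.31 times the lowest in knockout livers, so each genotype held both low and high libraries. The log2 fold change was 0.23 ± 0.53 with a 95% interval of -0.92 to 1.39 (edgeR adjusted p = 1.0), and it was -0.12 without knockout replicate 5. At this spread even a 2-fold difference, a log2 value of 1, lies inside the interval.

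Igfbp3, whose protein carries most IGF1 in blood together with the acid-labile subunit, was low in whole liver. It lies on chromosome 11 at 7206086 to 7213923. Wild type replicates 1 to 5 stood at 15.7, 19.7, 13.3, 15.6 and 15 CPM and knockout replicates at 10.4, 13.1, 13.6, 13.6 and 17.4 CPM. The genotypes overlapped, with 2 knockout libraries below the lowest wild type library. Igfbp3 had a log2 fold change of -0.22 ± 0.15 (95% interval -0.54 to 0.11, edgeR adjusted p = 1.0).

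In TPM, the transcript share of a library per gene length, the binding proteins Igfbp1 to Igfbp7 can be compared with each other. Igfbp2 made up 14.3 ± 3.03% of their summed TPM in wild type and 27.6 ± 5.4% in knockout livers (SD, n = 5 each). By replicate the shares were 16.8, 16.6, 11.1, 10.9 and 16.2% in wild type and 25.4, 31.7, 34.3, 20.7 and 25.9% in knockout livers. No knockout library overlapped a wild type library, and an exact two-sided permutation test gave p = 0.0079. Since Igfbp2 was already known to rise, this share is the same result on another scale.

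Igfbp4 kept the largest share in all 10 libraries, at 76.8 ± 3.03% and 64.6 ± 5.02%. The ratio of Igfbp4 to Igfbp2 TPM ran from 4.42 to 7.35 in wild type and from 1.73 to 3.38 in knockout libraries. Igfbp7, a binder with low affinity for IGF, took 6.98 ± 0.932% and 6.22 ± 1.28%. The summed TPM of all binding proteins other than Igfbp2 was 921 ± 177 in wild type and 997 ± 237 in knockout livers. Their log2 levels differed by 0.0985, and an exact two-sided permutation test gave p = 0.627. Lowest in this sum were wild type replicate 2 (649 TPM) and knockout replicate 2 (593 TPM). In CPM, Igfbp4 in wild type replicate 2 (1815) lay within the range of the other wild type libraries. Knockout replicate 2 was lowest of all in Igfbp4 by CPM too (1490).

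**Figure D2:**
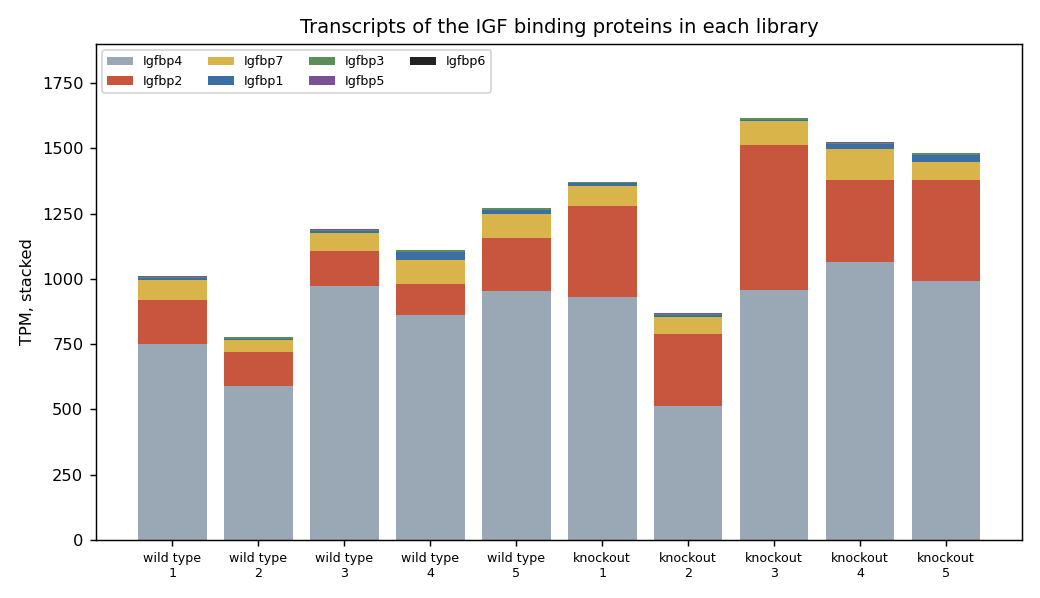
Stacked TPM (vertical axis, from 0) of Igfbp1 to Igfbp7 in each library, 1 bar per library. The red part, Igfbp2, runs from 121 to 206 TPM in wild type and from 275 to 554 TPM in knockout bars, while the grey part, Igfbp4, runs from 514 to 1064 TPM across both.

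Igf1, the ligand, was lower on average in the knockout but did not pass the test. The gene (chromosome 10 at 87858265 to 87937042) overlaps the antisense gene Igf1os, and strand is not stated for the counting. Wild type replicates 1 to 5 stood at 390, 438, 342, 316 and 301 CPM, and knockout replicates at 313, 401, 290, 258 and 261 CPM. The 3 highest libraries, replicates 1 and 2 of the wild type and 2 of the knockout, have the lowest scores on the first principal component (-42.7 to -21.7), and the part of that component in Igf1 was not tested. The log2 fold change was -0.23 ± 0.15 (95% interval -0.56 to 0.10, edgeR adjusted p = 1.0). As TPM, Igf1 was at 480 ± 41 and 433 ± 19.2, and the order of libraries differed, with knockout replicate 2 second highest by CPM (401) but at 416 TPM near the lowest.

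Per summed TPM of the binding proteins, Igf1 was at 0.461 ± 0.0996 in wild type and 0.33 ± 0.0847 in knockout livers. By replicate the ratio was 0.544, 0.587, 0.373, 0.432 and 0.369 in wild type and 0.303, 0.48, 0.282, 0.28 and 0.304 in knockout livers. Of the knockout libraries 4 lay below every wild type library, and replicate 2 lay among the wild type values. Wild type replicates 1 and 2 and knockout replicate 2, the highest in this ratio, also scored lowest on the first principal component. The part of that component in the ratio was not tested. The log2 ratio differed by -0.489, and an exact two-sided permutation test gave p = 0.0476. In 7 of 10 tests that each dropped 1 library (1, 2 or 4 of the wild type, or 1, 3, 4 or 5 of the knockout), exact p was 0.0794 to 0.0952 in the same direction. The ratio contains Igfbp2 in its denominator, so it is not separate from the rise of that gene.

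Igfals encodes the acid-labile subunit, a hepatocyte protein that locks IGF1 and IGFBP3 in a large complex. The gene lies on chromosome 17 at 24865997 to 24882010. It stood at 123, 103, 122, 89.9 and 107 CPM in wild type and at 126, 78.8, 91.4, 103 and 89.3 CPM in knockout replicates 1 to 5. The genotypes overlapped, and the highest library was a knockout. Igfals had a log2 fold change of -0.15 ± 0.14 (95% interval -0.46 to 0.15, edgeR adjusted p = 1.0).

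Ghr encodes the growth hormone receptor and had the smallest p among the genes without a call. It lies on chromosome 15 at 3317760 to 3583492. Wild type replicates 1 to 5 stood at 365, 444, 569, 464 and 433 CPM, and knockout replicates at 405, 461, 295, 365 and 309 CPM. Of the knockout libraries 3 lay below every wild type library, though replicate 4 by less than the rounding shows, and the other 2 lay among the wild type values. For Ghr the log2 fold change was -0.31 ± 0.15 (95% interval -0.65 to 0.02, edgeR unadjusted p = 0.066, adjusted p = 1.0).

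The feedback genes Cish and Socs2 varied more between livers than between genotypes. Both encode inhibitors that STAT5 induces soon after growth hormone acts. Cish lies on chromosome 9 at 107296026 to 107302784 and overlaps the pseudogene Gm17040 and the antisense gene Gm17041, both on the opposite strand. It stood at 29.5, 43.4, 34.1, 5.89 and 24.4 CPM in wild type replicates 1 to 5 and at 50, 8.67, 59.3, 31.7 and 16.6 CPM in the knockout. Low and high libraries occurred in both genotypes, with wild type replicate 4 the lowest of all. Cish had a log2 fold change of 0.28 ± 0.52 (95% interval -0.84 to 1.41, edgeR adjusted p = 1.0), and it was -0.03 without knockout replicate 3.

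Socs2 lies on chromosome 10 at 95385362 to 95417180. It stood at 5.24, 9.23, 7.79, 4.79 and 5.23 CPM in wild type replicates 1 to 5, a range of 1.93-fold. Knockout replicates stood at 21.6, 2.24, 15.9, 6.93 and 2.01 CPM, a range of 10.7-fold. Knockout replicates 1 and 3 lay above every wild type library and replicates 2 and 5 below every one. The difference in spread was seen after the values were known and was not tested. The log2 fold change was 0.60 ± 0.55 (95% interval -0.60 to 1.80, edgeR adjusted p = 1.0), and without knockout replicate 1 it was 0.08.

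Over the 10 libraries, after each genotype's mean was removed, Cish and Socs2 were high and low in the same livers. Pearson's r of their log2 CPM was 0.77 (p = 0.0063, adjusted p = 0.28 over the 45 pairs of the 10 genes) and Spearman's rho was 0.90 (p = 0.0019, adjusted p = 0.042), by exact permutation within genotypes. Within wild type libraries alone r was 0.71 and within knockout libraries 0.93. Without the 2 libraries farthest from the median of Socs2, knockout replicates 1 and 5, r was 0.81. Igfbp1 and Cish went opposite ways, with r = -0.73 (p = 0.018, adjusted p = 0.40) and rho = -0.89 (p = 0.0012, adjusted p = 0.042), by exact permutation. Without wild type replicate 4 and knockout replicate 3, the farthest in Igfbp1, that r was -0.49. Both relations passed over the 45 pairs as ranks and not as Pearson's r, and no other pair passed by either measure.

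**Figure D3:**
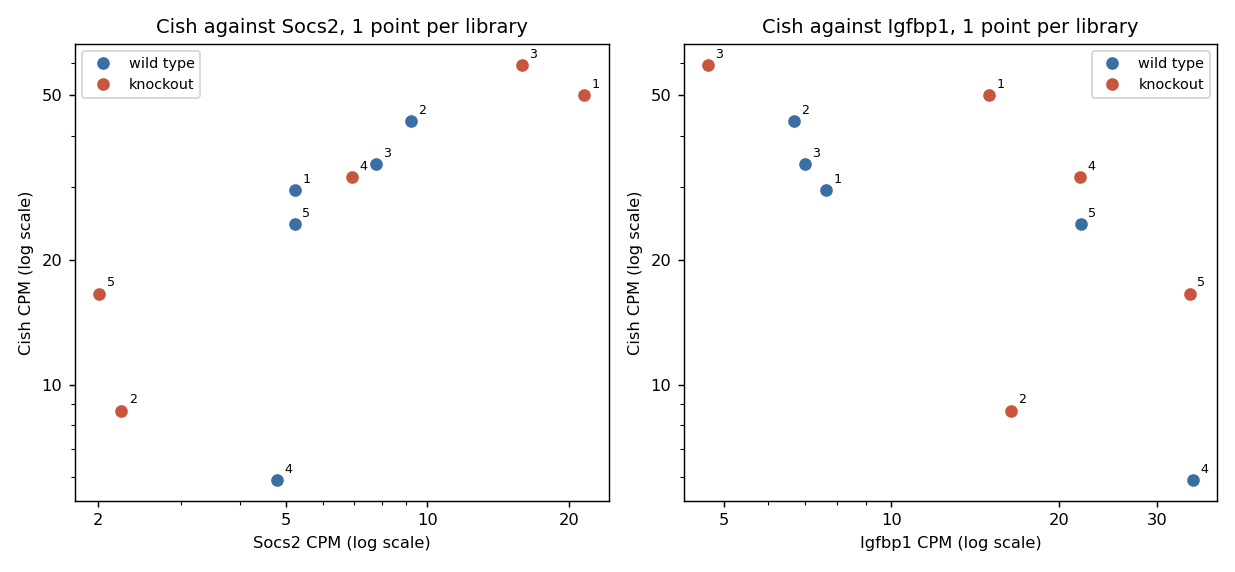
Cish CPM against Socs2 CPM (left) and against Igfbp1 CPM (right) on log axes, 1 point per library, numbered by replicate (blue wild type, red knockout). Knockout replicates 1 and 3, at 21.6 and 15.9 CPM of Socs2, are also the highest in Cish, and wild type replicate 4, the lowest in Cish at 5.89 CPM, is the highest in Igfbp1 at 34.8 CPM.

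Lepr, the leptin receptor, had the lowest mean level of the 10 genes in these livers. The gene lies on chromosome 4 at 101717404 to 101815352, and between 14 and 53 counts were recorded per library. Levels were 0.622, 1.46, 1.62, 1.86 and 1.66 CPM in wild type and 1.12, 2.42, 1.23, 1.87 and 0.581 CPM in knockout replicates 1 to 5. The genotypes overlapped fully, and the log2 fold change was -0.01 ± 0.37 (95% interval -0.82 to 0.79, edgeR adjusted p = 1.0). Its sign changed in 9 of 22 alternatives.

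Of the 10 genes 1 passed the test over all genes, and the same 1 had genotypes that did not overlap. The fitted difference was positive for 4 genes and negative for 6, with a median of -0.03 on the log2 scale where all 13619 genes had -0.02. Of all genes tested 44.7% were positive. In TPM over all libraries the order of levels was Igfbp4 (858 ± 182), Igf1 (456 ± 39), Igfbp2 (263 ± 140), Ghr (214 ± 34), Igfals (54.4 ± 11.3), Igfbp1 (12.8 ± 9.65), Cish (10.7 ± 6.94), Igfbp3 (6.84 ± 1.32), Socs2 (4.59 ± 3.94) and Lepr (0.312 ± 0.13), each with its SD over 10 libraries. Igfbp4 exceeded Igf1 in all 10 libraries and Igf1 exceeded Igfbp2 in 9. Igfbp2 and Ghr changed places with genotype: in TPM Igfbp2 was the lower of the pair in all 5 wild type libraries (121 to 206 against 175 to 267) and the higher in all 5 knockout libraries (275 to 554 against 168 to 224), so their pooled order does not describe the wild type. Igfbp1 lay above Cish in 5 libraries, which came from both genotypes. The ranges were fully apart between Ghr and Igfals, between Igfals and Igfbp1 and between Socs2 and Lepr.

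**Figure D4:**
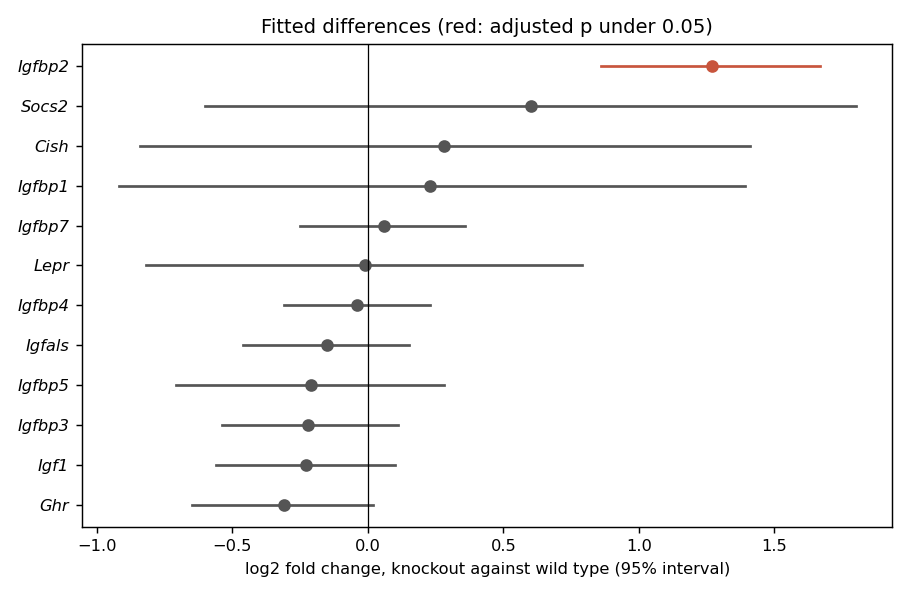
Fitted log2 fold changes, knockout against wild type (horizontal axis), with 95% intervals for the 10 genes and for Igfbp5 and Igfbp7. Igfbp2, in red, is at 1.27 with an interval of 0.86 to 1.67, and each of the other intervals includes 0.

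Further genes of the pathway were described from 7 lists with 96 distinct genes, of which 78 passed the filter on low counts. None of them passed over all genes by edgeR. Counts of sign in the lists stand beside 44.7% of all genes tested with a positive log2 fold change. An unadjusted p under 0.05 was found for 10 of the 78 (12.8%), where 4.82% of all genes tested had one. Since the lists were drawn up with earlier results of these data known, this share is not independent evidence.

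Among 20 genes of growth hormone receptor signalling, 10 had a positive and 10 a negative log2 fold change, and 0 passed. The kinase gene Jak2 had 12.2 ± 3.42 CPM (wild type) and 11.3 ± 2.82 CPM (knockout), and Stat5b at 50.1 ± 4.2 and 45.9 ± 9.32 CPM (SD, n = 5 each). The smallest p belonged to the prolactin receptor gene Prlr, at 59 ± 19 and 40.9 ± 11 CPM (log2 fold change -0.53 ± 0.24, edgeR adjusted p = 1.0). Next came Irs2, an adaptor of insulin signalling (0.27 ± 0.20). Of the 13 other IGF ligands, receptors and binding proteins 7 were tested and 0 passed, with the protease gene Htra1 at -0.48 ± 0.29 and Igfbp5 at -0.21 ± 0.23. The IGF1 receptor gene Igf1r was low, at 1.73 ± 0.604 and 1.59 ± 0.262 CPM, while the insulin receptor gene Insr was at 71.7 ± 21.4 and 73.1 ± 14.2 CPM.

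Of 6 genes listed as partners of the leptin receptor 4 were tested and 0 passed. Leprotl1, whose protein acts in receptor trafficking, was at 12.8 ± 1.56 and 10.7 ± 0.506 CPM (log2 fold change -0.26 ± 0.11, edgeR adjusted p = 1.0), and its relative Leprot was at 0.10 ± 0.11. Lep itself had 3 counts over all libraries. In the list of FOXO1 and its targets 10 of 14 genes were positive, where 44.7% of all genes tested were, and 0 passed. Pck1, the gluconeogenic enzyme gene, was at 945 ± 71.9 and 1308 ± 452 CPM (0.47 ± 0.20, edgeR adjusted p = 0.995), and Apoc3 at 1291 ± 509 and 897 ± 179 CPM (-0.53 ± 0.25). Knockout replicate 5 held 2044 CPM of Pck1 and the other knockout libraries 822 to 1331 CPM. Wild type replicates 1 and 2 held 1837 and 1847 CPM of Apoc3, and the other wild type libraries 860 to 1051 CPM. Fgf21 was at 2.21 ± 1.22 and 4.51 ± 1.4 CPM and did not pass (edgeR unadjusted p = 0.0084, adjusted p = 0.594). Its log2 fold change was 1.01, with a 95% interval of 0.31 to 1.71. The next gene in the FGF21 list of 10 was Fos (0.64 ± 0.43).

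Genes with a sex-biased level set by the growth hormone pattern were covered by 2 lists. Of the 17 male-biased genes 6 were positive, 11 negative and 0 passed. Cyp4a12b, which may share reads with the near copy Cyp4a12a, was at 24.7 ± 11.6 and 55.3 ± 10.6 CPM (1.17 ± 0.30, edgeR adjusted p = 0.327). Egfr was at 236 ± 33.3 and 143 ± 40.9 CPM (-0.72 ± 0.19, edgeR adjusted p = 0.327). Of the 18 female-biased genes 8 passed the filter, 6 of them negative with a median of -0.92, and 0 passed the test. The median covers those 8 alone and is no value of the whole list. Cyp17a1 was at 9.27 ± 3.36 and 3.88 ± 1.65 CPM (-1.25 ± 0.32, edgeR adjusted p = 0.327) and Cyp2b13 at 4.38 ± 5.42 and 0.572 ± 0.405 CPM (-2.95 ± 0.84, edgeR adjusted p = 0.434). The wild type mean of Cyp2b13 rested on replicates 4 and 5, at 5.32 and 13.5 CPM, while the other 3 stood at 0.619 to 1.69 CPM. Those replicates were also the highest of the wild type in Cyp2b9 (268 and 240 CPM) and Cyp2a4 (6.75 and 2.9 CPM).

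**Figure D5:**
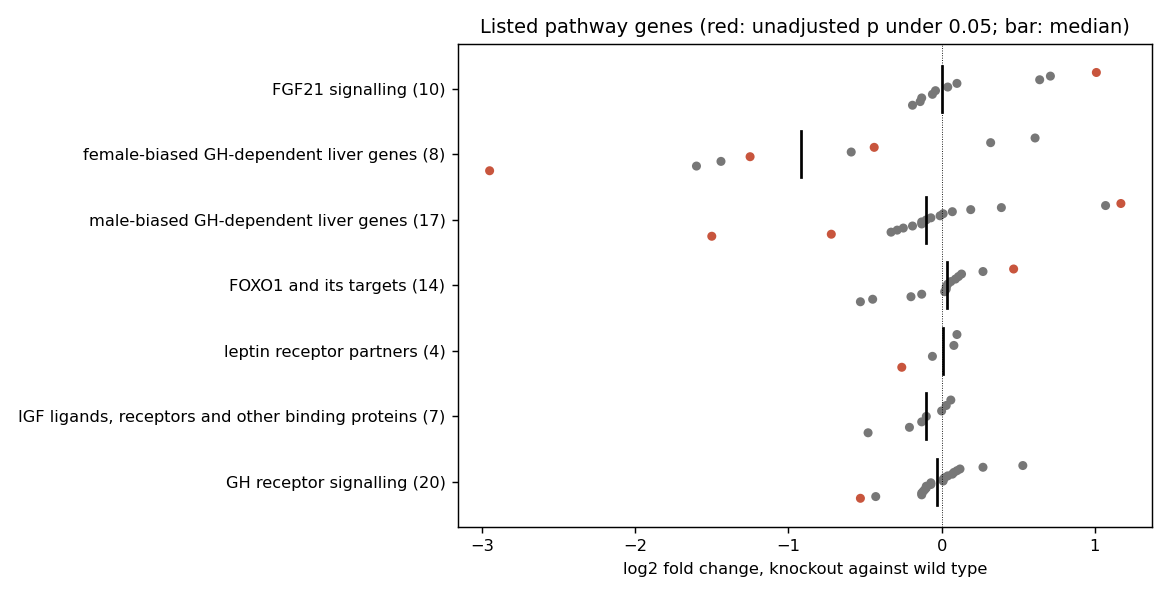
Log2 fold changes, knockout against wild type (horizontal axis), of the tested genes in the 7 pathway lists, 1 point per gene, with the list's median as a black bar and the number tested in brackets. Red points have an unadjusted p under 0.05, and no point passed adjustment over all 13619 genes.

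The genes most like Igfbp2, Igfbp1 and Igf1 across the 10 libraries were found by Pearson's r of log2 CPM after each genotype's mean was removed, among 13618 genes. For Igfbp2 they were Eif4ebp3 (r = 0.93), 4632404H12Rik (0.92), 9230112E08Rik (0.91), Zfp28 (0.90) and Nrbp2 (0.90). None of these 5 passed the test between genotypes, and their log2 fold changes ran from -0.16 to 0.34. For Igfbp1 they were Zfp750 (r = 0.94), Maoa (0.93), Epha2 (0.91), Dph6 (0.90) and Nedd4l (0.89). For Igf1 they were Glyat, Wfdc21, Jtb, 2610301B20Rik and Adh7, each with r = 0.96. These are the highest values of a large search over few libraries that also share the first principal component, and are given as a description.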

How the data were processed

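RNA sequencing of 10 liver samples was deposited by the authors as a single table of 51911 genes. Each library has an expected count (an estimated, not whole, number of reads) and a TPM value, and the authors added a log2 fold change with a p-value that is not said to be adjusted. Per the submitters' processing notes, fastp, HISAT, RSEM and the build GRCm38.p5 were used; versions, settings and strand are not stated there. Control columns carry other names than the wild type titles and were assigned by their number. Counts were rounded (7.68% were not whole), and 5 rows naming no gene were dropped.

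Genes were tested with edgeR 4.0.16 (R 4.3.3, quasi-likelihood) on the 13619 genes kept by filterByExpr, scaled by TMM, with a Benjamini-Hochberg adjusted p under 0.05 as a call. All 10 genes passed the filter. SE values come from the F statistic, and CPM are TMM-normalised. Against the library totals without TMM scaling, a count of 3 equals 0.111 to 0.146 per library on the CPM scale, for counting error only. Ratios and shares of TPM were tested by exact permutation. The samples are not said to be separate animals, so a p-value covers the spread between samples that may be technical. The most alike libraries still had a chi-square of 30.08 for each degree of freedom, so none looked deposited again.

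The genes, lists and tests were chosen with earlier results of these data known. All 10 genes are named, and of each pathway list the genes that passed or else the 2 with the smallest p. Jak2, Stat5b, Igf1r, Insr, Lep, Cyp2b9 and Cyp2a4 were chosen after their values were seen. Gene coordinates and overlaps come from GENCODE M21 on GRCm38. Alternatives were other scalings and filters, DESeq2 1.42.0, limma 3.58.1 on voom values and on log2 TPM, sva 3.50.0, a replicate block, and fits that drop 1 library.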

Additional observations from a re-analysis of the deposited data

Results flagged for a closer look

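Igf1 TPM per summed TPM of the binding proteins was 0.48 in knockout replicate 2, apart from the next highest knockout library at 0.304. The gap was 0.88 of the range of the 5 knockout libraries, above the critical value of 0.71 for 5 samples. In 26 groups looked at, chance flags about 1 in 20. In that library the summed TPM of the binding proteins was 867, against 1372 to 1616 in the other knockout libraries, and Igfbp4 was lowest of all at 514 TPM. Its Igf1, at 416 TPM, lay within the 415 to 456 TPM of the other knockout libraries. The reason for the low sum was not tested. Cish, which is not part of the ratio, was at its second lowest level there (8.67 CPM).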

How the results depend on the processing

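Igfbp2 kept its direction in all 22 alternatives (log2 fold change 1.15 to 1.38) and its call in 17, losing it in the 5 fits that dropped replicate 2 or 3 of the wild type or replicate 2, 3 or 5 of the knockout (adjusted p = 0.0511 to 0.0755). The number of changed genes over the table was 93 by DESeq2, 43 with a surrogate variable, 11 and 7 by limma on log2(TPM + 1) and log2(TPM + 0.1), and 6 to 21 with 1 library left out, against 18. The cause was not tested. None of the other 9 genes was called in any alternative. Igfbp1 was at -0.03 by limma-voom and at -0.12 to 0.76 with 1 library left out. Igfbp4 was at 0.07 with library totals, 0.00 by limma-voom, 0.09 on both TPM scales and -0.09 to 0.02 with 1 library left out. Cish was at -0.03 to 0.53 and Lepr at -0.27 to 0.19 with 1 library left out, and Lepr was at 0.04 with library totals, 0.05 with a surrogate variable and 0.01 on log2(TPM + 0.1). Library totals moved the median of all genes from -0.023 to 0.072.

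The Igfbp2 share differed by 11.6 to 15 percentage points with 1 library left out. The log2 level of the other binding proteins differed by -0.0283 from CPM per kb and by -0.0218 to 0.276 with 1 library left out. The log2 ratio of Igf1 to binding proteins differed by -0.632 to -0.395 with 1 library left out. With the replicate block, flipping signs over 5 pairs gave 13.3 points for the share and -0.489 for the ratio, each at an exact p of 0.0625, the smallest those pairs allow. Once each genotype's mean was removed, same-numbered libraries correlated at -0.41, 0.39, 0.00, 0.43 and -0.19. These values cannot settle whether the numbers pair the samples, because they also carry the first principal component. The sample titles do not state a pairing. The edgeR fit with the block called 26 genes and gave Igfbp2 1.28 (adjusted p = 0.0395). Depth limits Lepr most, with 14 counts in its lowest library.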

Other observations

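Wild type replicate 4, the library with the lowest Cish level, was at an extreme of its group in some genes that growth hormone is known to control in mice and not in others. The genes given here were chosen after their values were seen. Bcl6, a repressor that growth hormone lowers, was at 52.8 CPM there and at 8.94 to 26.4 CPM in the other wild type libraries. Hsd3b5, a male-biased steroid enzyme gene, was at 50.7 CPM there and at 132 to 270 CPM in the other wild type libraries, but knockout replicate 4 was nearly as low at 59.9 CPM. Cyp7b1 (102 CPM), Slco1a1 (142 CPM), C6 (123 CPM), C8b (152 CPM) and Susd4 (12.9 CPM), also male-biased, were lowest of the wild type in wild type replicate 4. Others did not follow, among them Cyp4a12a, which was highest of the wild type in that library (307 CPM). Egfr (255 CPM), Elovl3 (51.2 CPM) and Cyp2d9 (1525 CPM) lay there within the range of the other wild type libraries. In knockout replicate 2, where Cish was also low (8.67 CPM), Bcl6 was at 23.4 and Hsd3b5 at 199 CPM. Socs3, a feedback gene of cytokine signalling, was low in wild type replicates 4 and 5 (7.68 and 9.93 CPM), where Igfbp1 was high (34.8 and 21.9 CPM). Knockout replicate 5 went the other way, with the highest Socs3 of all libraries (36.8 CPM) and Igfbp1 at 34.3 CPM.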
